A study of Mus musculus with 10 samples.

Results

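Dnase1l3, Oit3, Gpr182, Ehd3 and Adam23 are 5 genes used as markers of liver sinusoidal endothelium that do not encode scavenger receptors. They were taken by name from the table of array values, and all 5 were found among its 24704 genes. The 5 genes and the lists used below were chosen with earlier results of these data known. The RNA came from mouse liver cells isolated as sinusoidal endothelium, by a density gradient and CD146 magnetic beads. In the Gata4-LSEC-KO group, called knockout here, a Clec4g-icre transgene, driven from a gene of sinusoidal endothelium, was combined with floxed Gata4, and the control group, labelled WT, held sibling mice. There were 5 arrays in the knockout group and 5 in the control group, and each array held cells pooled from 3 mice. The labels give no age and no sex, and do not say whether the siblings carried the Cre transgene or the floxed allele.

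Sinusoidal endothelial cells line the capillaries of the liver. They are fenestrated, lack a continuous basement membrane and take up waste molecules from the blood by endocytosis. GATA4 is a zinc finger transcription factor known to direct the specification of this endothelium, and continuous capillary endothelium of other organs has little of it. The 5 genes cover different sides of sinusoidal identity. DNASE1L3 is a secreted nuclease that digests chromatin outside cells. OIT3 is a secreted protein with a zona pellucida (ZP) domain that is known from the liver. GPR182 is an atypical chemokine receptor, which removes chemokines rather than signalling through G proteins. EHD3 is an ATPase of endocytic recycling, and ADAM23 is a surface protein with a disintegrin domain and a metalloprotease domain without catalytic activity.

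All 5 genes had lower means in the knockout, by 1.27-fold to 1.56-fold. Dnase1l3 (log2 fold change -0.64 ± 0.14, SE) and Gpr182 (-0.45 ± 0.09) fell by the test across all genes, with an adjusted p of 0.0399 and 0.0261 by limma. Adam23 (-0.59 ± 0.15, adjusted p = 0.0853), Ehd3 (-0.48 ± 0.18, adjusted p = 0.263) and Oit3 (-0.34 ± 0.15, adjusted p = 0.324) did not pass the threshold of 0.05. So 2 of 5 passed, both lower, where 0.846% of all genes were called lower. The count was 0 in 8 of the 10 fits with 1 array left out, and 0 with the hepatocyte, neutrophil or cholangiocyte marker mean as a covariate. Of all genes, 306 passed with the hepatocyte covariate, 73 with the cholangiocyte covariate and 0 with the neutrophil covariate, against 529 with none. With the neutrophil covariate the count of 0 therefore says nothing particular about the 5 genes. A log2 fold change below 0, whatever its p, was found in 55.2% of all genes. Set against the pan-endothelial genes of the same array, all 5 had knockout values below every control value, as did 1.96% of all genes.

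The values are log2 RMA values, in which 1 unit is a doubling of the array signal. The 10 arrays had been brought to 1 distribution, with identical sorted values on 9 arrays and differences of at most 0.00186 on the tenth. The value of a gene is therefore set by its position from the brightest probe set on its array. The 5 genes lay near the bright end, where neighbouring positions differ by up to 0.0605. Dnase1l3 held positions 19 to 55 of 25428 in the knockout and 8 to 17 in the control, and Adam23, the last of the 5, held 150 to 250 in the knockout and 82 to 171 in the control. Positions of different genes also depend on their probes and do not rank RNA amounts.

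The arrays themselves were not all alike. Control replicate 1 correlated with the other arrays at 0.920 to 0.944 across genes, against 0.969 to 0.988 among the other 9. Gata4, the targeted gene, had means of 8.59 in the knockout and 8.71 in the control, with SDs of 0.24 and 0.15 over 5 arrays each, a difference of -0.12 ± 0.13 (log2, SE) that did not pass (adjusted p = 0.742 by limma). The sources do not place its probes inside or outside the deleted part, so it checks nothing about the labels. Over all genes 2.14% passed the threshold. In such bulk samples, fewer cells of a type and less RNA per cell cannot be told apart.

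The stretch around the transcription start is shown for the 2 members with an entry in the RefSeq table used (GRCm38.p6), and for Ehd2, the relative of Ehd3 that rose, because GATA4 binds DNA at GATA motifs. Each window runs from 250 bases before the start site to 50 after it. The motifs searched on both strands were AGATAA with its variant AGATAG, as well as TGATAA with its variant TGATAG. Capitals mark a match. The windows are chr17:73804591-73804890 on the plus strand for Ehd3, chr1:63445641-63445940 on the plus strand for Adam23 and chr7:15967486-15967785 on the minus strand for Ehd2.

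Ehd3: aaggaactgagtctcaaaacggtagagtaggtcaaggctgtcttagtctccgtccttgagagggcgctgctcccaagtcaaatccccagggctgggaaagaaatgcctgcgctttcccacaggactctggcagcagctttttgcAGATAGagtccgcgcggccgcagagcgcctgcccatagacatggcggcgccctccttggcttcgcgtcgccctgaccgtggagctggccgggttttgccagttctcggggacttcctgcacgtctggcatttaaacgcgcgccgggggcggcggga

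Adam23: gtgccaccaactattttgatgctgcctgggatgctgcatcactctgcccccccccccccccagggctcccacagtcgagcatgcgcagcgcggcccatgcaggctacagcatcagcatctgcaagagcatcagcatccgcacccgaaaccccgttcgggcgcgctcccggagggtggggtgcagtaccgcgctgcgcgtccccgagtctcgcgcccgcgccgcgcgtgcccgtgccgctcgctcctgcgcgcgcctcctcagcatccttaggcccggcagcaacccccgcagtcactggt

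Ehd2: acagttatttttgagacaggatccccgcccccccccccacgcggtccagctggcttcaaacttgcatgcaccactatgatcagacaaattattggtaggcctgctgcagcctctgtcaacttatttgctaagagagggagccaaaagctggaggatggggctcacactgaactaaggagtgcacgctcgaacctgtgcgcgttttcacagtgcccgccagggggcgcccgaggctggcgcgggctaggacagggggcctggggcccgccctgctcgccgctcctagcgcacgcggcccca

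The Ehd3 window held 1 match, AGATAG, which begins 106 bases before the start site. The windows of Adam23 and Ehd2 held 0. Of 32851 windows of this length in the table, 29.8% held at least 1 match, so the match in Ehd3 is a description of the letters and not a site. The windows of Adam23 and Ehd3 had 31 and 24 CG dinucleotides, where the median window had 7.

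Dnase1l3 encodes the extracellular nuclease. It read 11.06, 10.85, 11.50, 11.27 and 11.33 in knockout replicates 1 to 5, against 11.58, 12.00, 12.00, 11.90 and 11.73 in control replicates 1 to 5. The groups did not overlap, and the highest knockout value lay 0.08 below the lowest control value. The gene was 1.56-fold lower in the knockout (95% interval 1.26 to 1.93), with means of 11.20 ± 0.25 (SD, n = 5) in the knockout and 11.84 ± 0.18 in the control. Groups without overlap and lower in the knockout were found for 2.37% of all genes. Among the 5 genes Dnase1l3 and Gpr182 had them. An exact two-sided permutation test over the 252 splits of the arrays gave Dnase1l3 p = 0.00794, unadjusted, the smallest p that 5 against 5 arrays can give.

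Gpr182 encodes the chemokine-removing receptor. Its values were 10.54, 10.55, 10.71, 10.60 and 10.49 in knockout replicates 1 to 5, and 10.94, 11.07, 11.14, 11.02 and 10.95 in control replicates 1 to 5. The groups stood 0.24 apart, and each spanned no more than 0.22. It was 1.37-fold lower in the knockout (95% interval 1.19 to 1.57), at 10.57 ± 0.08 (SD, n = 5) in the knockout against 11.02 ± 0.08 in the control. Its difference was smaller than that of Dnase1l3 or Adam23, and its spread was the smallest of the 5. The exact permutation test gave it the same smallest p of 0.00794.

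Adam23 encodes the disintegrin protein, which in neurons is a receptor for the secreted LGI proteins. It read 9.48, 9.44, 9.92, 9.67 and 9.93 in knockout replicates 1 to 5, against 9.82, 10.36, 10.50, 10.43 and 10.27 in control replicates 1 to 5. The groups overlapped through control replicate 1 alone, which lay below knockout replicates 3 and 5. The gene was 1.50-fold lower in the knockout (95% interval 1.19 to 1.90), with means of 9.69 ± 0.24 (SD, n = 5) in the knockout and 10.28 ± 0.27 in the control. Without control replicate 1, Adam23 was at -0.70 with an adjusted p of 0.0143 by limma.

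Ehd3 encodes the recycling ATPase, which in the liver is found in the sinusoidal endothelium. It read 10.61, 10.80, 11.33, 11.33 and 11.46 in knockout replicates 1 to 5, and 11.25, 11.78, 11.46, 11.84 and 11.58 in control replicates 1 to 5. Knockout replicates 1 and 2 lay below all controls, and the other 3 lay above the lowest control, which was replicate 1. The spread was the widest of the 5 genes, with means of 11.10 ± 0.37 (SD, n = 5) in the knockout and 11.58 ± 0.24 in the control. The 95% interval of the fold ran from 1.05 to 1.84 and the exact permutation p was 0.0556, unadjusted.

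Oit3 encodes the ZP domain protein and differed least. It read 10.67, 10.72, 11.28, 11.11 and 11.10 in knockout replicates 1 to 5, and 11.05, 11.54, 11.27, 11.48 and 11.27 in control replicates 1 to 5. As for Ehd3, knockout replicates 1 and 2 lay below all controls, while knockout replicate 3 lay above 3 of the control arrays. Its means were 10.98 ± 0.27 (SD, n = 5) in the knockout and 11.32 ± 0.19 in the control, a 1.27-fold difference with a 95% interval of 1.02 to 1.58 and an exact permutation p of 0.0794, unadjusted. Whether the 5 genes differ from each other in the size of their change was not tested.

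**Figure D1:**
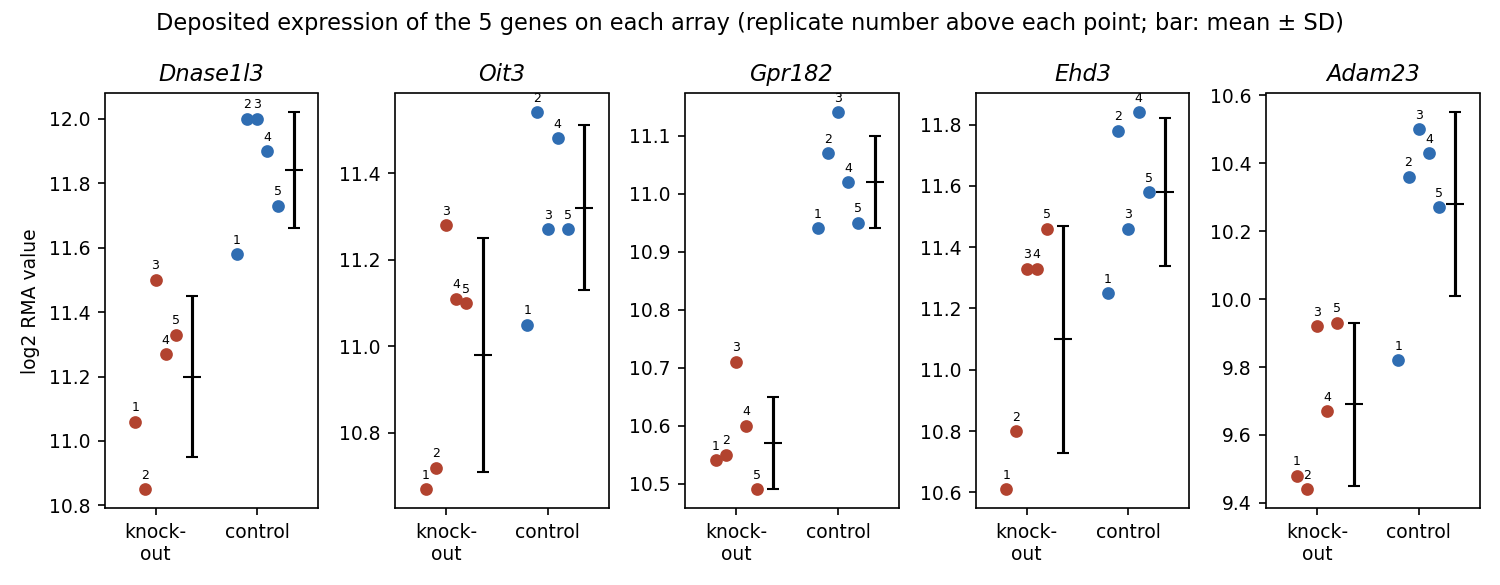
Deposited log2 RMA values (vertical axis, a separate scale in each panel) of the 5 genes on each array, with knockout arrays on the left in red and control arrays on the right in blue, replicate numbers above the points, and bars for mean ± SD (n = 5). The groups do not overlap for Dnase1l3 and Gpr182, and control replicate 1 is the lowest control for all 5 genes.

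The same arrays were low for most of the 5 genes. Control replicate 1 was the lowest control for 5 of 5 genes. Knockout replicates 1 and 2 held the lowest values of their group for Dnase1l3, Oit3, Ehd3 and Adam23, whereas for Gpr182 the lowest was knockout replicate 5. The mean of 18 pan-endothelial genes such as Eng (endoglin) and Kdr (a VEGF receptor) was low on the same arrays, at 9.47 and 9.48 in knockout replicates 1 and 2 and at 9.70 to 9.87 in the other knockout arrays. In the control group it was 9.54 in replicate 1 and 9.59 to 9.75 in the others. Of these 18 genes 0 passed by limma and 3 had an unadjusted p under 0.05, and their median log2 fold change was -0.01. Here and below, the share of all genes at an unadjusted p under 0.05 is not given, so such counts are not read as an excess.

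Relative to this list mean, the knockout values of all 5 genes lay below all control values. Dnase1l3 stood 1.37 to 1.64 above the list mean in the knockout and 2.05 to 2.31 above it in the control, all in log2 units. The groups stood 0.41 apart, more than on the deposited scale. Adam23 stood between -0.04 and 0.09 in the knockout, against 0.29 to 0.82 in the control. Gpr182 stood at 0.65 to 1.07 in the knockout and 1.30 to 1.45 in the control. Ehd3 stood at 1.14 to 1.62 in the knockout and 1.71 to 2.12 in the control, and Oit3 at 1.20 to 1.41 in the knockout and 1.52 to 1.79 in the control. On this scale 1.96% of all genes had groups without overlap that were lower in the knockout.

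In the limma fit on this scale, Dnase1l3 (-0.66, adjusted p = 0.0111) and Adam23 (-0.61, adjusted p = 0.0336) passed. Gpr182 did not pass there (-0.47, adjusted p = 0.0948), and neither did Ehd3 (-0.49, adjusted p = 0.141) or Oit3 (-0.36, adjusted p = 0.206). The knockout spread of Gpr182 was 0.17 on this scale, against 0.08 as deposited, while that of Adam23 was 0.06, against 0.24 as deposited (SD, n = 5). Knockout replicates 1 and 2 were the highest of their group for Gpr182 on this scale.

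**Figure D2:**
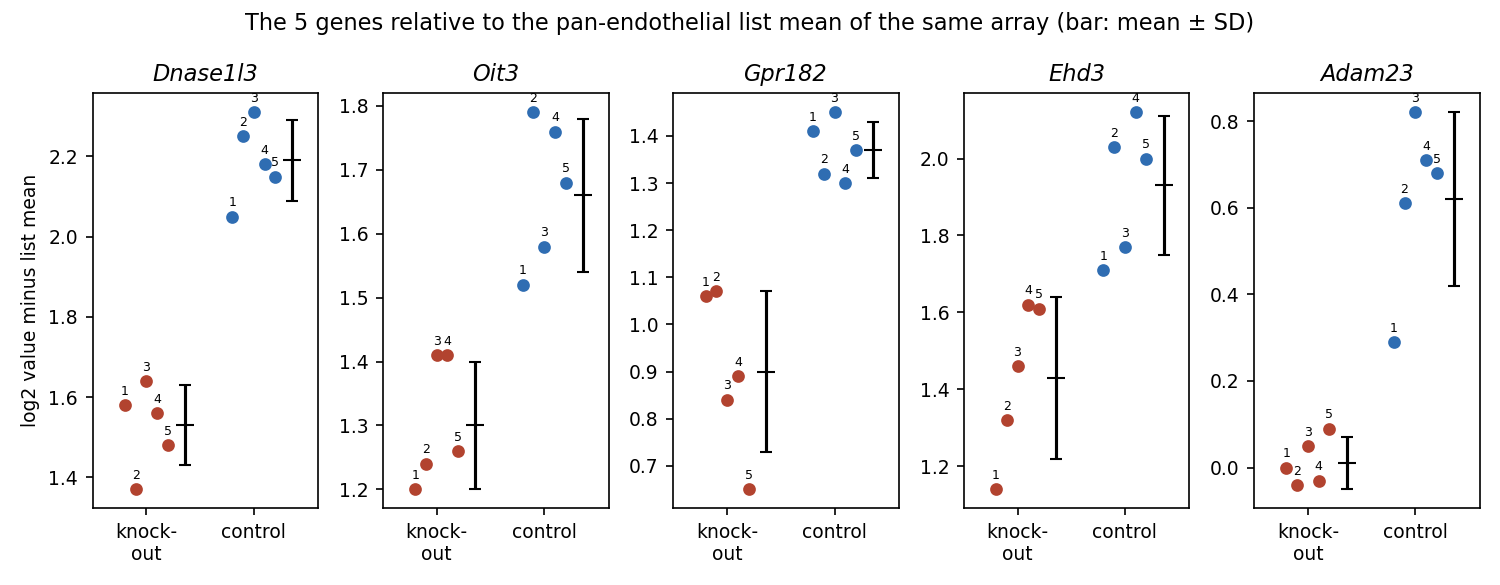
The log2 values of the 5 genes minus the mean of 18 pan-endothelial genes on the same array (vertical axis, a separate scale in each panel), knockout on the left in red and control on the right in blue, with bars for mean ± SD (n = 5). No panel has overlapping groups, and the gap is widest for Dnase1l3, at 0.41.

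Marker lists of other cells also differed between these arrays. The mean of 9 cholangiocyte markers, such as Krt7 and Epcam, was 5.55 and 6.15 in knockout replicates 1 and 2, 3.97 to 5.01 in the other knockout arrays and 3.30 to 4.19 in the control. All 9 were higher in the knockout by sign, where 55.2% of all genes were lower. Of the 9, 0 passed by limma and 8 had an unadjusted p under 0.05. With this mean as a covariate the log2 fold change was -0.46 for Gpr182, -0.40 for Dnase1l3, -0.33 for Adam23, -0.11 for Oit3 and -0.10 for Ehd3, and none of the 5 passed (adjusted p from 0.375 to 0.979). With this covariate 73 of all genes passed, against 529 without it. Gpr182 was the member whose value this covariate moved least.

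Against 1.30% of all genes called higher, 7 of 12 neutrophil markers, such as Lcn2 and S100a8, rose. Their mean was 4.39 to 6.06 in the knockout and 3.12 to 3.73 in the control, so the groups did not overlap and this mean and the genotype cannot be told apart. With it as a covariate Dnase1l3 was at -0.47 and Gpr182 at -0.52, each with an adjusted p of 1.00 by limma. In that fit 0 of all genes passed. Of 15 hepatocyte markers, such as Alb and Trf, 1 rose and 1 fell, where 1.30% and 0.846% of all genes were called higher and lower. The mean of the 15 was 6.40 to 7.91 in the knockout and 6.50 to 6.79 in the control. With the hepatocyte mean as a covariate, Dnase1l3 was at -0.62 (adjusted p = 0.121) and Gpr182 at -0.45 (adjusted p = 0.0767) by limma. DNASE1L3 is also known from macrophages and dendritic cells. The mean of 13 Kupffer cell and macrophage markers overlapped between the groups, at 6.80 to 7.82 in the knockout and 5.37 to 8.11 in the control. With it as a covariate Dnase1l3 still passed (-0.65, adjusted p = 0.0448). Of 10 dendritic cell markers 1 rose, where 1.30% of all genes were called higher. Their mean was 4.47 to 4.82 in the knockout and 4.30 to 4.75 in the control, and its part in the result was not tested.

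By sign 55.2% of all genes were lower in the knockout, and 1.30% were called higher. All 14 genes of the dissociation stress response were higher in the knockout by sign, and 1 of them rose. Their mean was 8.46 and 8.57 in knockout replicates 1 and 2, the arrays on which Dnase1l3, Oit3, Ehd3 and Adam23 were lowest, and 7.88 to 8.05 in the other knockout arrays. In the control it was 8.41 in replicate 2 and 7.39 to 7.79 in the others, so the groups overlapped. Control replicate 2 had the highest mean of the 5 members, at 11.35. Control replicate 5, with a stress mean of 7.79, had a member mean of 11.16. Control replicates 3 and 4, with stress means of 7.51 and 7.39, had member means of 11.27 and 11.33. Control replicate 1, with a stress mean of 7.48, had the lowest of the controls, at 10.93. Of 9 markers of portal, venous and lymphatic endothelium 1 rose, and their mean was 6.87 to 7.06 in the knockout and 6.40 to 6.78 in the control, without overlap. The 1 that rose, Vwf, is also counted among the continuous capillary markers below. The part of these 2 lists in the members' values was not tested.

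Each member has relatives or partners, and 79 of these genes in 6 lists were measured. Of them 6 passed, 4 lower and 2 higher, where 0.846% and 1.30% of all genes were called in these directions. Their median log2 fold change was 0.01, against -0.02 over all genes and -0.48 over the 5 members. With the neutrophil or the cholangiocyte list mean as a covariate 0 of the 79 passed by limma, where 0 and 73 of all genes passed.

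Among 10 genes of DNases and extracellular DNA handling, Dnase1l1 fell. It encodes another member of the DNase I family and read 5.70, 5.87, 5.62, 5.83 and 5.75 in knockout replicates 1 to 5, against 6.49, 6.13, 6.39, 6.41 and 6.59 in control replicates 1 to 5. The groups did not overlap and the gene was 1.57-fold lower in the knockout (-0.65 ± 0.11, adjusted p = 0.00933 by limma). The call ended relative to the pan-endothelial list mean, where its adjusted p was 0.0745. Dnase2a, the lysosomal DNase, was at -0.47 ± 0.13 (adjusted p = 0.108) and Endog, a mitochondrial nuclease, at -0.42 ± 0.16 (adjusted p = 0.239). Dnase1 (-0.19 ± 0.20) and Dnase1l2 (-0.07 ± 0.18) did not pass, and their knockout means of 3.53 and 3.16 lay under the array median of 3.71.

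Of 12 genes listed with Oit3, 1 fell. The list holds 10 genes of ZP domain proteins and Hpn and Tmprss2, which encode serine proteases without that domain. Tgfbr3, the TGF-beta co-receptor betaglycan, was 1.45-fold lower (-0.54 ± 0.12, adjusted p = 0.0418), at 8.17 ± 0.18 (SD, n = 5) in the knockout and 8.70 ± 0.16 in the control. Leaving out knockout replicate 1, 2, 4 or 5, or control replicate 2, 3, 4 or 5, ended the call of Tgfbr3, with adjusted p values of up to 0.105. Eng, which also has a ZP domain, was at -0.02 ± 0.18 (adjusted p = 0.981). Dmbt1, an epithelial glycoprotein, was at 2.23 ± 0.66 (adjusted p = 0.130), and at -0.09 with the cholangiocyte list mean as a covariate. It read 6.34 and 5.79 in knockout replicates 1 and 2, 2.62 to 3.92 in the other knockout arrays and 1.34 to 3.42 in the control. Tectb, known from the inner ear, was at -0.21 ± 0.11 (adjusted p = 0.481).

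Of 15 atypical chemokine receptor, ligand and partner genes, 2 fell and 1 rose. Ackr4, which removes the chemokines CCL19 and CCL21, was 3.28-fold lower (-1.72 ± 0.21, adjusted p = 0.00135), and Ackr1, the Duffy antigen receptor, was 3.13-fold lower (-1.65 ± 0.29, adjusted p = 0.0127). Ackr3, the receptor closest to GPR182 in sequence, was at 0.96 ± 0.28 and did not pass (adjusted p = 0.118). Ramp3, a partner protein of the adrenomedullin receptor, to which GPR182 was once assigned, rose 2.35-fold (1.23 ± 0.16, adjusted p = 0.00250). Ackr4 read 5.21, 4.44, 5.07, 5.42 and 4.66 in knockout replicates 1 to 5, against 7.07, 6.38, 6.30, 6.81 and 6.81 in control replicates 1 to 5, with no overlap. The other 12 genes did not pass. They include Cxcl10, Cxcl12 and Cxcl13, ligands of GPR182, at -0.34 ± 0.15, 1.05 ± 0.43 and -0.72 ± 0.43, which were chosen after their values were seen.

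In the EHD family Ehd2 passed and Ehd3, Ehd1 and Ehd4 did not. Ehd2, which encodes the ATPase at the neck of caveolae, rose 3.07-fold (1.62 ± 0.22, adjusted p = 0.00302). It read 6.92, 7.27, 7.53, 7.19 and 7.87 in knockout replicates 1 to 5, against 5.38, 6.30, 6.02, 5.30 and 5.71 in control replicates 1 to 5. The groups did not overlap, and its call held when any 1 of the 10 arrays was left out (adjusted p up to 0.0126). Ehd1 was at 0.16 ± 0.11 (adjusted p = 0.594) and Ehd4 at 0.06 ± 0.19 (adjusted p = 0.931). Among the 22 EHD and recycling genes Ehd2 was the 1 that passed. Rab7, a GTPase of late endosomes, was at -0.30 ± 0.10 (adjusted p = 0.194) and Pacsin2, a membrane-bending protein, at 0.28 ± 0.10 (adjusted p = 0.243).

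Of 13 other ADAM genes, 0 passed by limma and 4 had an unadjusted p under 0.05. Adam11 (-0.16 ± 0.16) and Adam22 (0.13 ± 0.11), which like Adam23 encode proteins without protease activity, had means under the array median in both groups. Adam33 was at 0.45 ± 0.16 (adjusted p = 0.241), Adam19 at 0.55 ± 0.22 (adjusted p = 0.299) and Adamdec1 at -0.61 ± 0.26 (adjusted p = 0.321). Among 7 reported partners of ADAM23, 0 passed and 2 had an unadjusted p under 0.05. Itgav, the integrin alpha V chain, was at 0.56 ± 0.14 (adjusted p = 0.0764) and its groups did not overlap, at 7.44 ± 0.17 (SD, n = 5) in the knockout and 6.89 ± 0.27 in the control. Prnp, the prion protein gene, was at 1.24 ± 0.48 (adjusted p = 0.266), with control replicate 1 at 3.57 and the other controls at 5.59 to 6.54. Lgi3 was at -0.25 ± 0.15 (adjusted p = 0.524).

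**Figure D3:**
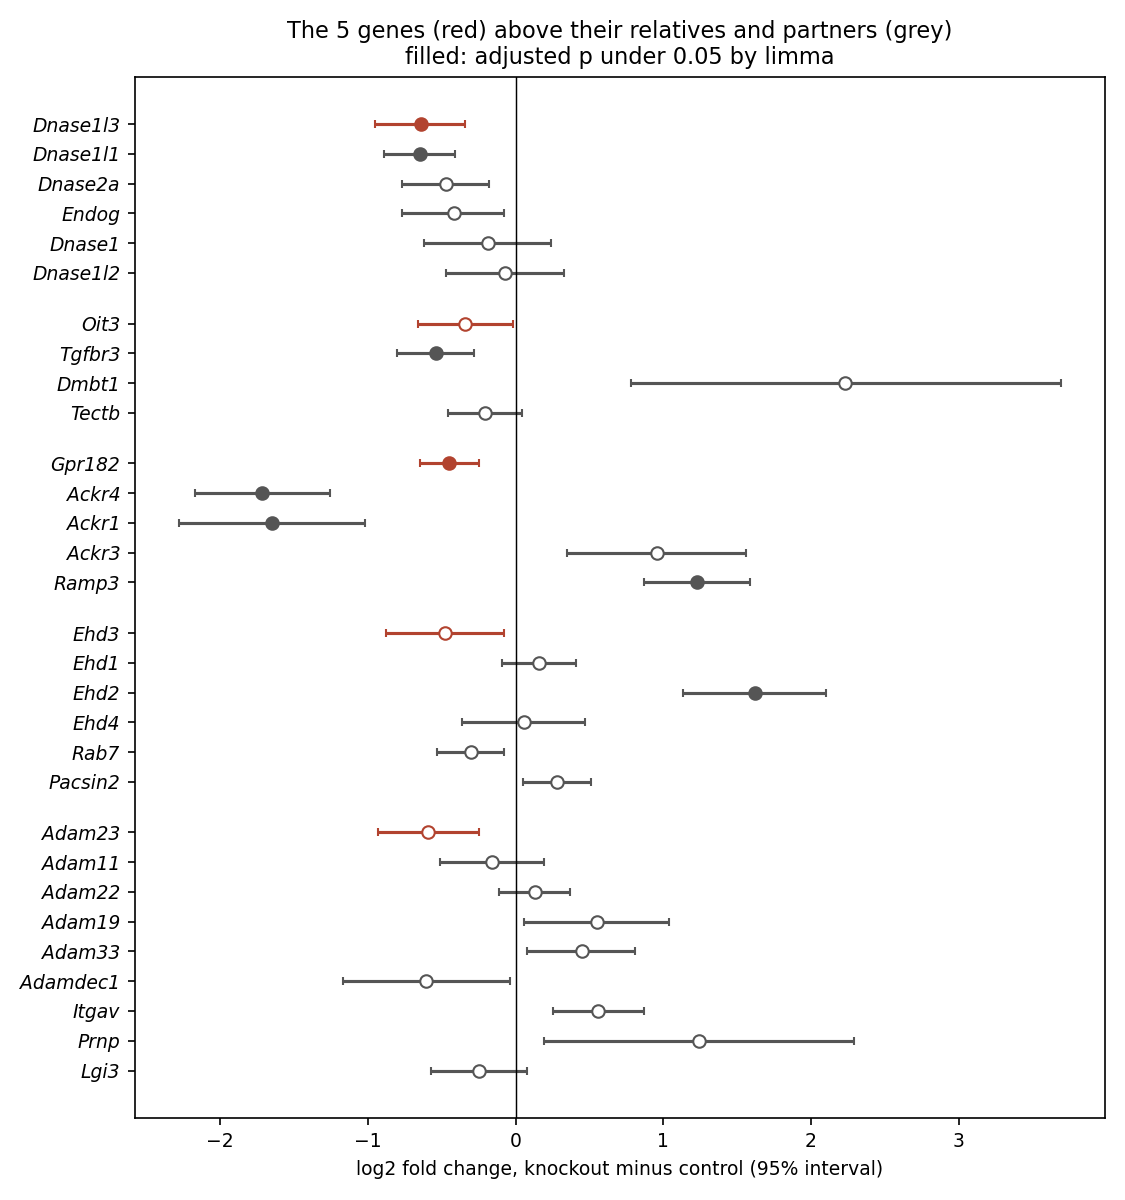
Log2 fold changes, knockout minus control (horizontal axis, with 95% intervals from limma), of the 5 genes in red and of named relatives and partners in grey below each; filled points passed an adjusted p of 0.05. Ehd2 lies to the right of 0 at 1.62 and Ehd3 to the left at -0.48, while Dnase1l1 and Dnase1l3 lie together at -0.65 and -0.64.

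Of 20 other sinusoidal markers outside the scavenger receptors, 10 fell, 0 rose and 10 did not pass, where 0.846% of all genes were called lower. By sign 19 were lower, and Sgpp2, chosen after its value was seen, was higher (0.44 ± 0.19, adjusted p = 0.334). Their median log2 fold change was -0.64, against -0.48 for the 5 members and -0.02 for all genes. Among those that passed, the largest decreases were in Clec1b (the podoplanin receptor CLEC-2, -1.37 ± 0.17), Dkk3 (-1.33 ± 0.17), Wnt2 (-1.08 ± 0.18) and Bmp2 (-1.07 ± 0.13), followed by the driver gene Clec4g (-0.76 ± 0.14) and the lysosomal protease gene Ctsl (-0.73 ± 0.11). Groups without overlap that were lower in the knockout were found for 10 of the 20, these 6 among them, and for 2.37% of all genes. The 6 were named for the largest changes among those that passed. That every member changed less in size than these 6 follows in part from this choice, and the difference was not tested. Dnase1l3 was at -0.64, as was the median of the 20. Of 20 markers of continuous capillary endothelium, 12 rose and 0 fell, with a median of 1.12, where 1.30% of all genes were called higher. By sign 16 of these markers were higher and 4 lower, and 1 of the 4 had groups without overlap. The count of 10 lower sinusoidal markers became 0 with the neutrophil and 1 with the cholangiocyte list mean as a covariate, and 6 without knockout replicate 2 or control replicate 2, 3 or 4. Clec4g missed the threshold when knockout replicate 1 or 2, or control replicate 2, 3 or 4, was left out (adjusted p up to 0.0598).

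**Figure D4:**
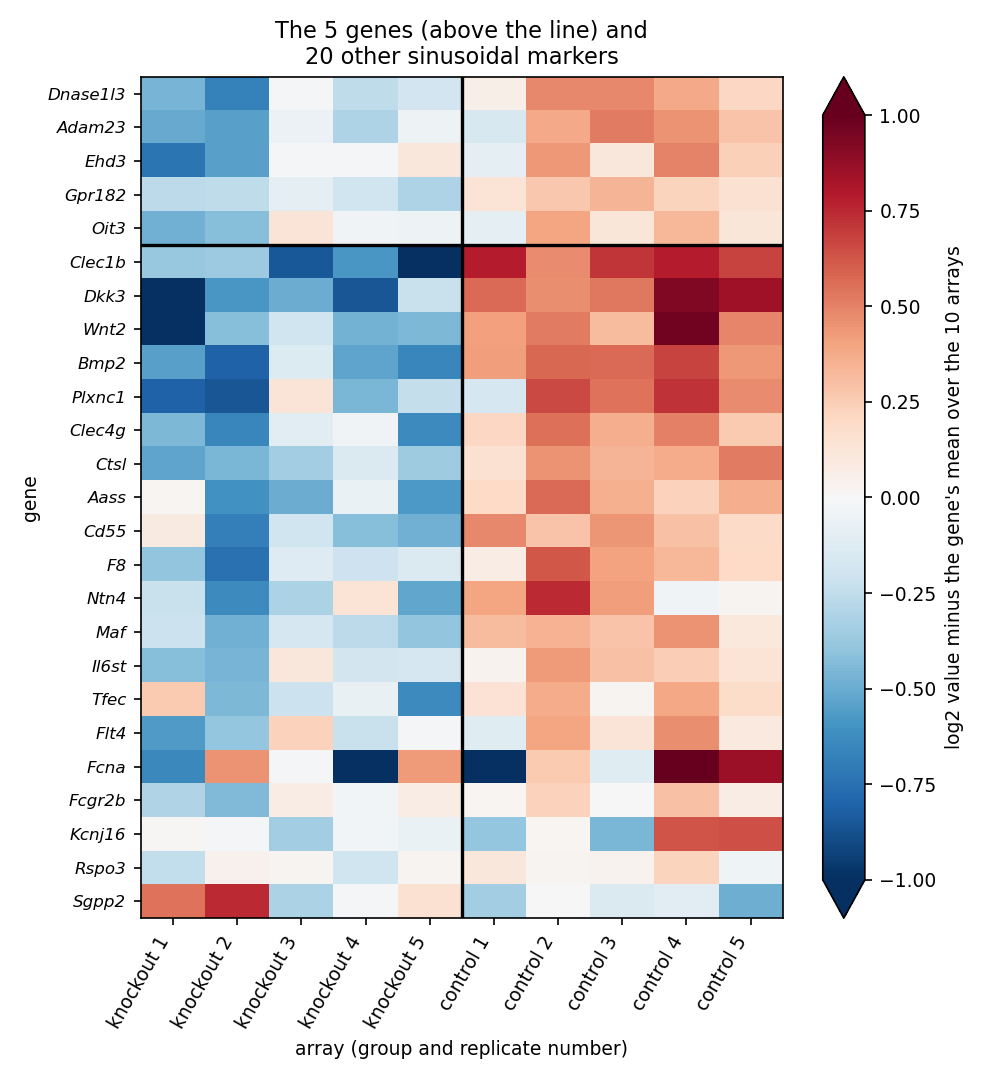
Heat map of the 5 genes (above the line) and 20 other sinusoidal markers (rows) over the 10 arrays (columns, knockout left of the line), coloured by the log2 value minus the gene's own mean over the arrays, with the scale ending at -1 and 1. Knockout replicates 1 and 2 are the bluest cells for Dnase1l3, Adam23, Ehd3 and Oit3, and control replicate 1 is the lowest control cell in each of the 5 rows above the line.

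The genes whose array profiles were most like each member were found by the root mean square distance over the 10 arrays, after each gene was centred on its own mean. For Dnase1l3 the nearest were F8, coagulation factor VIII (distance 0.0747), the mannose receptor gene Mrc1 (0.0850) and Man2a1, a Golgi mannosidase (0.0996), where the median gene stood at 0.436. F8 and Mrc1 are also markers of sinusoidal endothelium. For Oit3 they were the neuropilin gene Nrp1 (0.0539), the purine transporter gene Slc43a3 (0.0713) and Inpp5a, an inositol phosphatase (0.0806). For Gpr182 they were Itga9, the integrin alpha 9 chain (0.0649), Ssx2ip (0.0700) and Fign (0.0744), the last with values of 2.41 ± 0.02 (SD, n = 5) in the knockout and 2.79 ± 0.06 in the control, under the array median.

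For Ehd3 the nearest were the scavenger receptor gene Stab1 (0.116), Exoc3l2 (0.119) and Cd300lg (0.119). Cd300lg is on the list of continuous capillary markers, and was at -0.42 ± 0.20 (adjusted p = 0.395 by limma). For Adam23 they were Fut11, a fucosyltransferase (0.104), the member Dnase1l3 (0.107) and Vps8 (0.116), an endosomal tethering protein. Among the 10 pairs of members, Dnase1l3 and Adam23 were closest, at 0.107, followed by Oit3 and Ehd3 at 0.132. The farthest pair was Gpr182 and Ehd3, at 0.273. The distance includes the group difference and is a description of these arrays.

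Both genes that passed did so in 2 of the 10 fits with 1 array left out. Dnase1l3 missed the threshold when knockout replicate 1, 2, 4 or 5, or control replicate 2, 3, 4 or 5, was left out (adjusted p up to 0.104), and passed without knockout replicate 3 or control replicate 1. The call of Gpr182 ended and held without the same arrays, with an adjusted p of up to 0.0730. The log2 fold changes stayed between -0.72 and -0.56 for Dnase1l3 and between -0.48 and -0.42 for Gpr182. For Oit3 they lay between -0.42 and -0.27, for Ehd3 between -0.57 and -0.36 and for Adam23 between -0.70 and -0.53. No member changed sign when an array was left out.

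**Figure D5:**
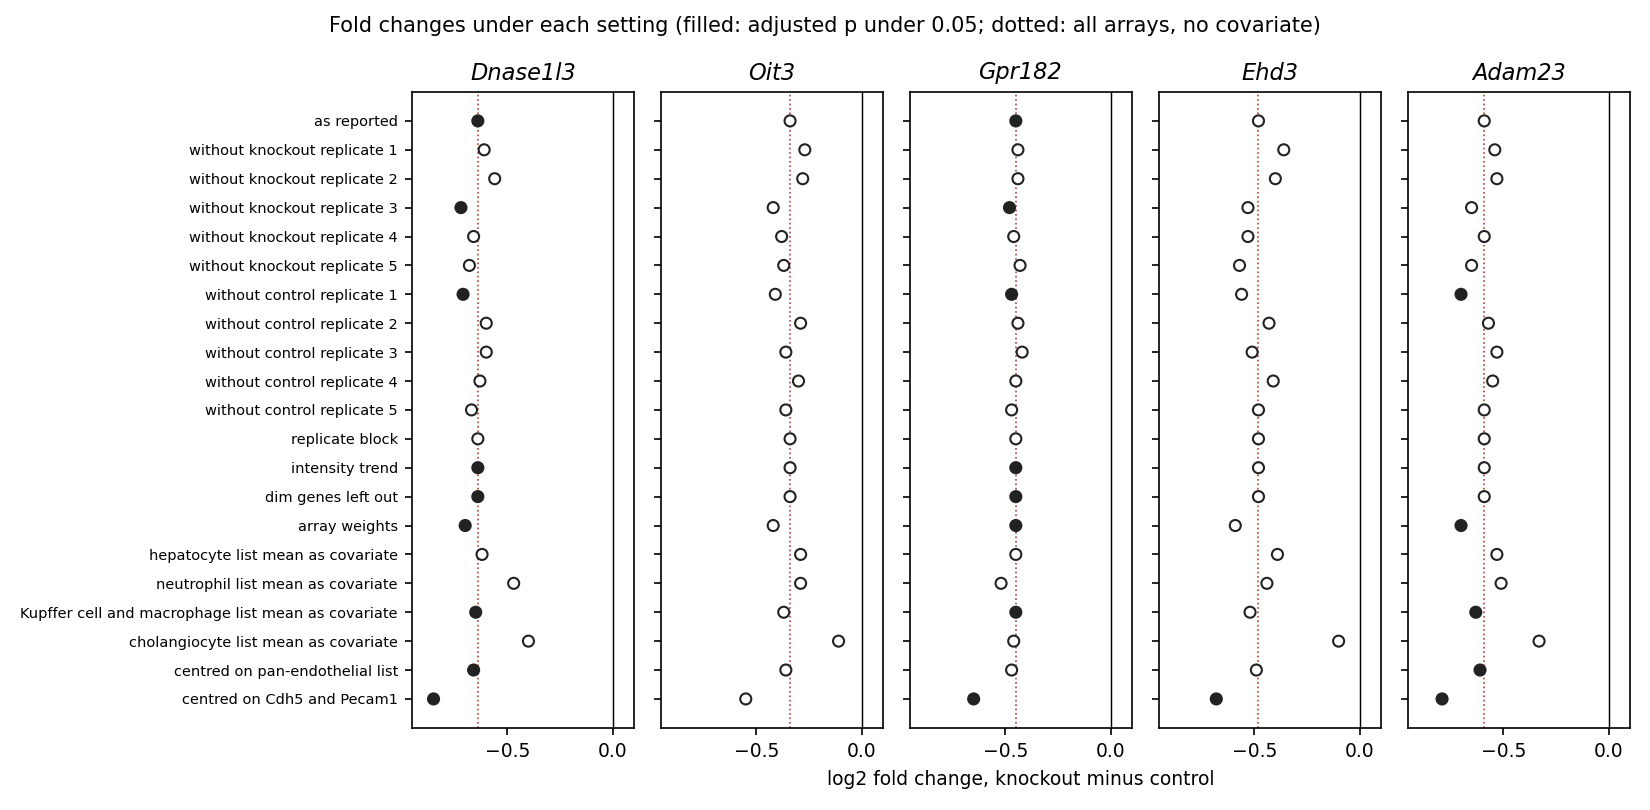
Log2 fold changes, knockout minus control (horizontal axis), of the 5 genes under each setting (rows), with filled points for an adjusted p under 0.05 by limma and a dotted line at the value from all arrays without a covariate. Every point lies left of 0. Except for Gpr182, the point farthest right is that with the cholangiocyte list mean as a covariate, at -0.10 for Ehd3 and -0.11 for Oit3. For Gpr182 that setting is at -0.46, and the point farthest right is at -0.42, without control replicate 3.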

How the data were processed

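Pools of 3 mice per array were hybridised on 1-colour Affymetrix arrays. The deposited values are log2 expression, made by the authors with RMA, per the submitters' processing notes; RMA corrects background, brings arrays to 1 distribution and so can compress differences. Neither the RMA version nor a genome build for the probes is given. Of 25428 probe sets, 24705 had 1 symbol and 723 had none here, which left 24704 genes. Groups were compared on all genes with limma 3.58.1 in R 4.3.3 (lmFit and eBayes, Benjamini-Hochberg adjustment, threshold 0.05), with exact permutation tests for single genes. The p-values measure the spread between pools, and the number of arrays limits precision. The fit was tested on simulated data, in 10 runs with 200 changed genes. It recovered 10.7% of changes of 0.5 log2 units and 75.8% of changes of 1, with 6.37% false. A gene that did not pass is therefore not shown to be unchanged. The members and lists were chosen with earlier results of these data known. Named genes are the members, Gata4, 9 direct relatives, per list of relatives or other sinusoidal markers up to 6 genes past the threshold with the largest change, filled to 3 by smallest p, the 2 brightest genes of other marker lists and the 3 nearest profiles per member. Alternatives were leaving out each array, a replicate block, limma settings, covariates and centring. Centring on Cdh5 and Pecam1 was chosen after seeing the data.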

Additional observations from a re-analysis of the deposited data

Results flagged for a closer look

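In 124 groups of 5 arrays, 6 had 1 array far from the other 4, and chance alone marks about 1 in 20 groups. Dnase1 was highest in knockout replicate 5, at 3.96, with the other knockout arrays at 3.40 to 3.49. Wnt2 was lowest in knockout replicate 1, at 6.20, with the others at 6.87 to 7.14. Prnp was highest in knockout replicate 2, at 7.37, with the others at 6.75 to 6.88. Tectb was lowest in control replicate 2, at 2.55, with the other controls at 2.72 to 2.79. Lgi3 was highest in control replicate 1, at 4.17, with the others at 3.49 to 3.63. The mean of 12 stellate cell and fibroblast markers was lowest in control replicate 1, at 5.33, with the others at 6.72 to 7.19. None of the 5 members was among these.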

How the results depend on the processing

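All 5 members kept their sign under every alternative run. With 1 array left out, 287 to 737 genes, 0 to 3 members, 6 to 11 of the other sinusoidal markers and 5 to 6 relatives passed; values ran from -0.72 to -0.56 for Dnase1l3, -0.48 to -0.42 for Gpr182 and -0.70 to -0.53 for Adam23. Replicate numbers did not pair the arrays (correlations of -0.052, 0.039, 0.006, 0.016 and -0.165, with 0 of 5 best with their own number). The replicate block left 275 genes, 0 members and 5 sinusoidal markers, with Dnase1l3 at -0.64 (adjusted p = 0.0940 by limma) and Gpr182 at -0.45 (0.103); of the 6 relatives 4 passed, without Dnase1l1 (0.0663) and Tgfbr3 (0.0955), and Clec4g missed the threshold (0.0603). Array weights gave 1070 genes and Adam23 at -0.70 (0.00634). The hepatocyte covariate left 306 genes and 0 members, with Dnase1l3 at -0.62 (0.121) and Gpr182 at -0.45 (0.0767). The neutrophil covariate left 0 genes by limma (1159 at an unadjusted p under 0.05), 0 members, 0 sinusoidal markers and 0 relatives, with Dnase1l3 at -0.47 and Gpr182 at -0.52 (both 1.00). The cholangiocyte covariate left 73 genes, 0 members, 1 sinusoidal marker and 0 relatives, with Dnase1l3 at -0.40 (0.688) and Gpr182 at -0.46 (0.375). Pan-endothelial centring gave 349 genes, Gpr182 at -0.47 (0.0948) and Adam23 at -0.61 (0.0336). The Kupffer covariate put Adam23 at -0.63 (0.0469), and its exact permutation p, unadjusted, was 0.0238 at -0.59. Centring on Cdh5 and Pecam1, which moves the median of all genes to -0.23, gave 4 members, with Ehd3 at -0.68 (0.0364) and Adam23 at -0.79 (0.0127). The count over all genes in that setting is not given, so the 4 are not read as an excess. Signs turned for 7 named genes that had not passed. With the cholangiocyte covariate Gata4 was at 0.15, Dnase1 at 0.09, Dnase1l2 at 0.11, Adam22 at -0.06, Dmbt1 at -0.09 (2.23 without it) and Tectb at 0.08; with the neutrophil covariate Dnase1 was at 0.15, Dnase1l2 at 0.08, Adam22 at -0.14 and Ehd4 at -0.08; with array weights Ehd4 was at -0.06. With 1 array left out Ehd4 ran from -0.06 to 0.16 and Dnase1l2 from -0.21 to 0.03. The causes were not tested.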

Other observations

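The other marker lists gave these counts by limma, and those at an unadjusted p have no share of all genes beside them. Of 6 GATA factor genes, 0 passed and 2 had an unadjusted p under 0.05. Of 12 stellate cell and fibroblast markers, 0 passed and 5 had an unadjusted p under 0.05, with a median log2 fold change of 0.70. Of 11 lymphocyte markers, 0 passed and 1 had an unadjusted p under 0.05.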
